A study of Mus musculus with 16 samples.

Results

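The 7 genes described here carry peptide presentation by MHC class II in the mouse: the class II chain genes H2-Aa, H2-Ab1 and H2-Eb1, the peptide-exchange factor genes H2-DMa and H2-DMb1, the invariant chain gene Cd74 and the transactivator gene Ciita. They were taken by symbol from 16 bulk RNA-seq tables of heart tissue, and all 7 were found among 55278 symbols and among the 18713 genes that passed a filter on low counts. The hearts came from male mice on a C57BL/6J background, 8 to 12 weeks old. The 4 groups, with 4 samples each, were cardiomyocyte PPARα-deficient mice given lipopolysaccharide (LPS) into the peritoneum, Ppara-Flox mice given LPS, cardiomyocyte PPARα-deficient mice given phosphate-buffered saline (PBS), and Ppara-Flox mice given PBS. The dose of LPS was 5 mg/kg and hearts were taken after 12 h. The controls carry the floxed alleles too, the labels do not say which Cre made the deletion, and none of the groups carries Cre alone. The labels give no litter or cage, so a p-value measures the spread between the hearts of a group as labelled.

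LPS is the outer-membrane component of Gram-negative bacteria that is sensed through Toll-like receptor 4, and PPARα is the nuclear receptor that turns on fatty acid oxidation in cardiomyocytes. A class II molecule is an α and a β chain that together hold a peptide from endocytosed protein and show it to helper T cells. In the unstressed body it is carried mainly by dendritic cells, B cells and some macrophages, heart macrophages among them. The invariant chain encoded by Cd74 plugs the groove of new class II molecules, and the DM heterodimer, made from H2-DMa and H2-DMb1, exchanges the last piece of it for peptide. Ciita does not bind DNA itself: it is recruited by the RFX complex, CREB and NF-Y sitting on the X and Y boxes of class II promoters, and interferon-γ induces it, with IRF1 taking part. Class I presentation, which shows peptides from inside the cell, is also raised by interferons, with Nlrc5 as the transactivator related to Ciita.

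The promoters of 2 class II chain genes are shown because the Y box on which NF-Y assembles can be read in both and, in H2-Eb1, the X1 core of the RFX site as well. Both are RefSeq sequence of build GRCm38.p6, the 140 bases before the gene's start in the direction of transcription, from chr17:34287824-34287963 on the minus strand for H2-Aa and from chr17:34305727-34305866 on the plus strand for H2-Eb1. Capitals mark matches to the X1 box core ACNGATG and to the Y box ATTGG, or its reverse CCAAT.
H2-Aa: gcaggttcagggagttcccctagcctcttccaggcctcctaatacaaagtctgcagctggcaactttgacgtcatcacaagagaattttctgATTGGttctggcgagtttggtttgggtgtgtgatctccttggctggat
H2-Eb1: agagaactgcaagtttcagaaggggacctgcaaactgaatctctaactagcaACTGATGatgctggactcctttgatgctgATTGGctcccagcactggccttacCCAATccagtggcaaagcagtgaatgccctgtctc
In H2-Eb1 the X1 core began 88 bases before the start, 22 bases lay between it and the first Y box, and a second Y box on the other strand ended 31 bases before the start. In H2-Aa the Y box began 48 bases before the start, and its only X1 core match lay further up, from 232 to 226 bases before the start and on the other strand.

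Promoters of 250 bases before the start were searched on both strands for 4 of the 7 genes, H2-Aa, H2-Eb1, H2-DMa and H2-DMb1. H2-Ab1, Cd74 and Ciita were not searched. All 4 held a Y box, against 33.8% of 32851 mouse promoters, and 3 held an X1 core, against 8.31%. The shares are per promoter, whereas a gene counted if any of its starts held the motif. H2-DMa had 2 starts, of which 1 held the Y box. An X1 core followed within 10 to 40 bases by a Y box on the same strand stood in H2-Eb1 and in H2-DMb1, with 22 and 23 bases between them, against 0.213% of all promoters. None of the 4 held the interferon-stimulated response element, searched as GAAA, any 2 bases and GAAA, or the STAT motif TTCNNNGAA, which 2.98% and 7.02% of all promoters held. Of 21 class I genes searched, 15 held a Y box, 6 an X1 core and 5 the X1 and Y pair. The interferon-stimulated response element was held by 3 of them and the STAT motif by 2. A match is a description of letters in a window, and no match says only that these letters are not in it.

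H2-DMa, H2-DMb1, H2-Ab1, H2-Aa and H2-Eb1 lie in this order within 197.1 kb of chromosome 17 (GRCm38, 34119541 to 34316674). Ciita lies on chromosome 16 from 10480059 to 10528418, and Cd74 on chromosome 18 from 60803848 to 60812652. Some of these genes share bases with others, and how the counting treated strand is not given in the sources used here. H2-DMa overlaps Brd2 on the opposite strand, H2-Eb1 an antisense gene, Ciita the gene Dexi on the opposite strand, and H2-DMb1 has a near-identical neighbour, H2-DMb2. Values of these 4 genes therefore carry an uncertainty that the replicate error does not show.

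The library totals ran from 65569134 to 75436023 estimated counts, and values below are CPM, these counts scaled to a common library size after TMM normalization. Low counts were most frequent at multiples of 4, and divided by 4 the totals were 16392283 to 18859005. The count behind a member in 1 library ranged from 35 to 174 for Ciita and from 74 to 290 for H2-DMb1, and was at least 427 for the class II chain genes and Cd74. The tissue label is heart although the extraction text speaks of pancreatic islets: no library had a count for the insulin genes Ins1 and Ins2 (0 in each of the 16), and Myh6, the adult cardiac myosin heavy chain, was at 17239 CPM or more. The targeted gene Ppara had 11.4, 17.6, 15.1 and 14.2 CPM in PPARα-deficient PBS hearts, against 59.3, 37.4, 47.7 and 56.4 CPM in Ppara-flox PBS hearts (log2 fold change -1.78 ± 0.28, adjusted p = 0.00287). In LPS hearts Ppara had 4.25, 6.32, 11.9 and 9.45 CPM in PPARα-deficient mice and 10.2, 7.23, 13.1 and 14.7 CPM in Ppara-flox mice, and the groups overlapped, so Ppara does not check the genotype labels there. The library numbers in the file headers ran from 1739 to 1769 for LPS hearts and from 957 to 1075 for PBS hearts, so LPS and whatever that numbering marks cannot be told apart.

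In Ppara-flox hearts class II transcripts were lower with LPS. The 3 class II chain genes, Cd74 and H2-DMa were lower in LPS hearts than in PBS hearts, by 1.97-fold to 3.30-fold, while H2-DMb1 and Ciita did not pass the test. Thus 5 of the 7 genes were lower and 0 were higher at an adjusted p under 0.05 (edgeR quasi-likelihood test, Benjamini-Hochberg over all genes). In this comparison 19.1% of all tested genes were lower and 20.2% higher. The median log2 fold change of the 7 genes was -1.09, against 0.0082 over all genes. In 5 of the 7 genes all 4 LPS hearts lay below all 4 PBS hearts, as they did in 18.4% of all genes. These are whole-tissue libraries, in which fewer cells that carry class II and less class II RNA per cell cannot be told apart.

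H2-Aa, the α chain of the I-A molecule, moved most. It had 11.7, 11.9, 12.2 and 16.2 CPM in LPS Ppara-flox hearts, against 44.3, 46.4, 36.5 and 44.5 CPM in PBS Ppara-flox hearts. Every LPS heart was below every PBS heart, and the highest LPS heart, replicate 4, stood apart from the other 3. The log2 fold change was -1.72 ± 0.31 (SE, adjusted p = 0.000312). Its partner H2-Ab1, the β chain of I-A, had 18.0, 21.8, 22.3 and 24.8 CPM in LPS hearts, against 46.2, 54.7, 47.8 and 43.9 CPM in PBS hearts, and these groups too did not overlap. The log2 fold change was -1.15 ± 0.24 (adjusted p = 0.000981).

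H2-Eb1 encodes the β chain of the I-E molecule. It had 9.75, 6.83, 10.6 and 13.8 CPM in LPS Ppara-flox hearts, against 28.1, 31.1, 22.4 and 21.9 CPM in PBS Ppara-flox hearts, again without overlap. The log2 fold change was -1.34 ± 0.28 (adjusted p = 0.00123). The α partner of this chain is a pseudogene in C57BL/6 mice, listed as H2-Ea-ps, and it had 0 counts in all 16 libraries, which allows a level of up to 0.152 to 0.178 CPM depending on the library.

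Cd74 was the most abundant of the 7. It had 41.0, 38.4, 38.0 and 52.2 CPM in LPS Ppara-flox hearts, against 98.2, 97.8, 78.3 and 87.3 CPM in PBS Ppara-flox hearts, with no overlap and a log2 fold change of -1.09 ± 0.26 (adjusted p = 0.00300). H2-DMa, the α chain of the peptide-exchange factor, had 2.13, 2.09, 2.52 and 2.42 CPM in LPS hearts, against 3.81, 5.54, 4.12 and 4.55 CPM in PBS hearts. All 4 LPS hearts were again below the PBS hearts, with a log2 fold change of -0.98 ± 0.22 (adjusted p = 0.00190).

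The other 2 genes overlapped between LPS and PBS. H2-DMb1, the β chain of the same factor, had 3.02, 1.52, 1.71 and 2.14 CPM in LPS Ppara-flox hearts, against 2.36, 4.24, 2.04 and 2.90 CPM in PBS Ppara-flox hearts. Its log2 fold change was -0.46 ± 0.31 (95% confidence interval -1.13 to 0.21, adjusted p = 0.274), an interval that holds both no change and the estimate for its partner H2-DMa. Ciita had 1.47, 1.35, 0.595 and 1.23 CPM in LPS hearts, against 1.41, 1.20, 2.25 and 1.71 CPM in PBS hearts. Its log2 fold change was -0.50 ± 0.40 (95% confidence interval -1.35 to 0.34, adjusted p = 0.350). Both genes rest on few counts, and of the 3 chain-gene estimates the interval of Ciita leaves out that of H2-Aa but not those of H2-Ab1 and H2-Eb1.

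**Figure D1:**
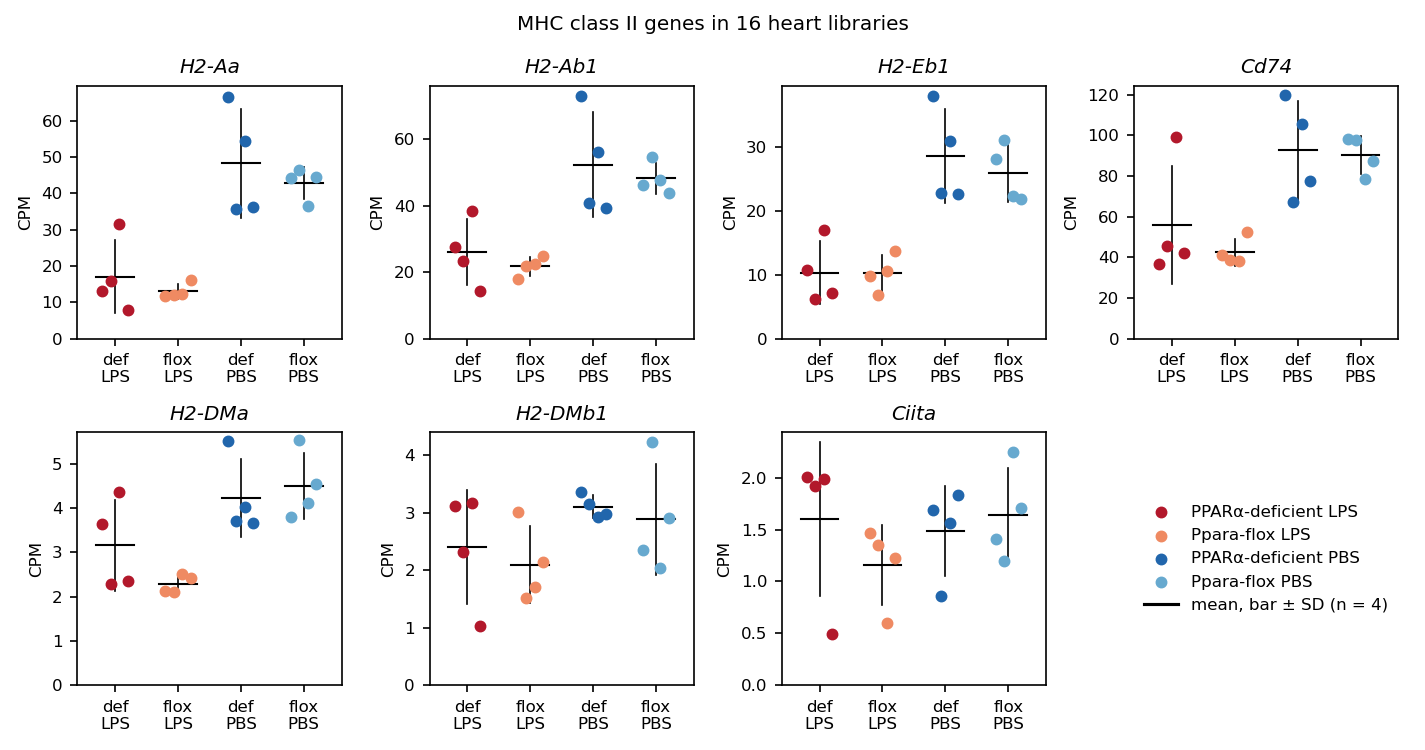
Level of each of the 7 genes in each heart, in CPM on a linear axis from 0. Points are libraries, with PPARα-deficient (def) and Ppara-flox (flox) LPS hearts left of the PBS hearts, the horizontal bar is the group mean and the vertical bar the SD (n = 4). For H2-Aa, H2-Ab1 and H2-Eb1 all LPS hearts lie below all PBS hearts of the same genotype, while Ciita and H2-DMb1 overlap.

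In PPARα-deficient hearts the class II chain genes were again lower with LPS, by 2.02-fold to 2.83-fold, and Cd74 was lower by 1.66-fold. H2-DMa, H2-DMb1 and Ciita did not pass the test. At the same threshold 4 of the 7 genes were lower and 0 higher, where 18.3% of all genes were lower and 19.4% higher. The median log2 fold change was -0.73, against 0.0084 over all genes. The 2 LPS comparisons share no library, but both use the spread estimated over all 4 groups together. The comparisons between genotypes given further on reuse the same hearts.

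H2-Aa had 13.1, 15.9, 31.5 and 7.91 CPM in LPS PPARα-deficient hearts, against 66.6, 35.8, 54.5 and 36.2 CPM in PBS PPARα-deficient hearts. The groups did not overlap, but both spread more widely than in floxed mice, and LPS replicate 3 came close to the lowest PBS hearts. The log2 fold change was -1.50 ± 0.31 (adjusted p = 0.00102). H2-Ab1 had 27.6, 23.2, 38.3 and 14.4 CPM in LPS hearts, against 73.0, 40.9, 56.0 and 39.4 CPM in PBS hearts, with replicate 3 just under the lowest PBS heart. Its log2 fold change was -1.01 ± 0.24 (adjusted p = 0.00266). H2-Eb1 had 10.7, 6.23, 17.1 and 7.14 CPM in LPS hearts, against 37.9, 22.9, 30.9 and 22.7 CPM in PBS hearts. Those groups were apart, with a log2 fold change of -1.47 ± 0.28 (adjusted p = 0.000578). In 3 of the 7 genes, these chain genes, all LPS hearts lay below all PBS hearts, as in 18.4% of all genes.

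Cd74 had 36.6, 45.6, 99.3 and 42.0 CPM in LPS PPARα-deficient hearts, against 119.6, 67.3, 106 and 77.7 CPM in PBS PPARα-deficient hearts. LPS replicate 3 lay above 2 of the PBS hearts, so the groups overlapped. The log2 fold change was -0.73 ± 0.26 (adjusted p = 0.0348). This call was lost when either PBS replicate 1 or 3, or LPS replicate 1, 2 or 4, was left out (log2 fold changes -0.66 to -0.57, adjusted p between 0.0846 and 0.115). It was also lost when the model was fitted to these 8 libraries only (adjusted p = 0.0954).

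H2-DMa had 3.65, 2.28, 4.37 and 2.35 CPM in LPS PPARα-deficient hearts, against 5.53, 3.71, 4.03 and 3.68 CPM in PBS PPARα-deficient hearts. The groups overlapped, and the log2 fold change was -0.42 ± 0.22 (95% confidence interval -0.88 to 0.036, adjusted p = 0.142). Without LPS replicate 3 it was -0.62 with an adjusted p of 0.0359, so that library decides the call. H2-DMb1 had 3.11, 2.32, 3.17 and 1.03 CPM in LPS hearts, against 3.37, 3.15, 2.93 and 2.99 CPM in PBS hearts (log2 fold change -0.37 ± 0.31, adjusted p = 0.391). Ciita, the transactivator, had 2.01, 1.93, 1.99 and 0.489 CPM in LPS hearts, against 1.69, 0.861, 1.56 and 1.84 CPM in PBS hearts. In 3 of the 4 LPS hearts Ciita was above every PBS heart and in replicate 4 it was below all of them. The log2 fold change was 0.11 ± 0.40 (95% confidence interval -0.73 to 0.95, adjusted p = 0.862).

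The transcripts that fell did not fall in equal measure. The ratio of H2-Aa to H2-Ab1, which encode the 2 chains of 1 molecule, was 0.474 to 0.822 in LPS PPARα-deficient hearts and 0.545 to 0.655 in LPS Ppara-flox hearts, against 0.8765 to 0.9748 in PBS PPARα-deficient hearts and 0.762 to 1.01 in PBS Ppara-flox hearts. Within each genotype the LPS ratios lay below the PBS ratios. H2-Aa also fell further than the invariant chain: the ratio of H2-Aa to Cd74 was 0.189 to 0.357 in LPS PPARα-deficient hearts and 0.286 to 0.319 in LPS Ppara-flox hearts, against 0.466 to 0.557 in PBS PPARα-deficient hearts and 0.451 to 0.509 in PBS Ppara-flox hearts. The ratio of Cd74 to H2-Ab1 overlapped between LPS and PBS in both genotypes, at 1.33 to 2.91 and 1.71 to 2.28 in LPS hearts of PPARα-deficient and floxed mice, against 1.64 to 1.97 and 1.64 to 2.12 in PBS hearts of those genotypes.

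Per kilobase of exon (GENCODE release M21 lengths), Cd74 was highest and Ciita lowest in each of the 4 groups. Cd74 averaged 33.3 ± 17.4 CPM per kb in LPS PPARα-deficient hearts and 25.3 ± 3.95 in LPS Ppara-flox hearts, against 55.1 ± 14.4 in PBS PPARα-deficient hearts and 53.8 ± 5.66 in PBS Ppara-flox hearts (SD, n = 4). H2-Ab1 came next, at 10.1 ± 3.87 and 8.45 ± 1.09 CPM per kb in LPS hearts of those genotypes, against 20.4 ± 6.12 and 18.8 ± 1.81 in PBS hearts. H2-Eb1 and H2-Aa followed at 13.3 ± 2.31 and 11.3 ± 1.16 CPM per kb in PBS Ppara-flox hearts, a pair whose ranges overlapped there, and in LPS PPARα-deficient hearts the ranges of all 3 chain genes overlapped. The DM genes were lower by level, at 1.72 ± 0.577 for H2-DMb1 and 1.31 ± 0.219 for H2-DMa in PBS Ppara-flox hearts, also overlapping, and Ciita averaged 0.172 ± 0.0478 CPM per kb in that group.

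The genotype comparison asks whether loss of PPARα in cardiomyocytes changes class II transcripts. None of the 7 genes passed the test in LPS hearts with edgeR, where 1.23% of all genes did. The count was also 0 with DESeq2 and with limma-voom. With edgeR 1 of the 7 genes, H2-DMa, had an unadjusted p under 0.05, as did 1709 of all 18713 genes. H2-DMa had a mean of 3.16 ± 1.02 CPM in PPARα-deficient LPS hearts and 2.29 ± 0.209 CPM in Ppara-flox LPS hearts (log2 fold change 0.46 ± 0.22, adjusted p = 0.544). The log2 fold changes of all 7 ranged from 0.0077 to 0.47 with a median of 0.39, against 0.0077 over all genes. For H2-Aa it was 0.39 ± 0.31 (95% confidence interval -0.25 to 1.04), for Cd74 0.40 ± 0.26 (-0.15 to 0.94) and for Ciita 0.47 ± 0.40 (-0.38 to 1.31), so differences of that size were not resolved with 4 hearts a group.

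PPARα-deficient LPS replicate 3 bore on these positive values. It was the highest of its group in 6 of the 7 genes, on average 0.71 log2 units above the group mean. Without it the log2 fold change between genotypes was -0.081 for H2-Aa, -0.034 for Cd74 and -0.35 for H2-Eb1. Replicate 4 of the same group was the lowest in 4 of the 7 genes, on average 0.73 log2 units below the mean. In LPS Ppara-flox hearts the mean deviation of a library over the 7 genes stayed between -0.14 and 0.23.

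In PBS hearts none of the 7 genes passed the edgeR test for genotype either, where 0.433% of all genes did. The count was 0 with DESeq2 and limma-voom as well. With edgeR none of the 7 had an unadjusted p under 0.05, where 1042 of all 18713 genes did. The log2 fold changes ranged from -0.14 for Ciita to 0.17 for H2-Aa. For H2-Aa, H2-Ab1 and Cd74, 2 PPARα-deficient hearts lay above all floxed hearts and 2 below all of them. The 95% confidence interval was -0.47 to 0.81 for H2-Aa, -0.38 to 0.61 for H2-Ab1 and -0.51 to 0.58 for Cd74.

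Whether LPS acted differently in the 2 genotypes was tested as an interaction, in which a positive value means a smaller fall, or a larger rise, with LPS in PPARα-deficient hearts. None of the 7 genes passed, at adjusted or unadjusted p under 0.05, and edgeR called 0 of all genes (0%), 1075 of them at an unadjusted p under 0.05, while DESeq2 called 55 genes and 0 of the 7. The estimate was 0.55 ± 0.31 for H2-DMa (95% confidence interval -0.094 to 1.20), 0.61 ± 0.56 for Ciita (-0.58 to 1.80), 0.36 ± 0.36 for Cd74 (-0.41 to 1.13) and 0.22 ± 0.43 for H2-Aa (-0.69 to 1.13). That H2-DMa was called in floxed hearts and not in PPARα-deficient hearts is therefore not shown to be a difference between genotypes.

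**Figure D2:**
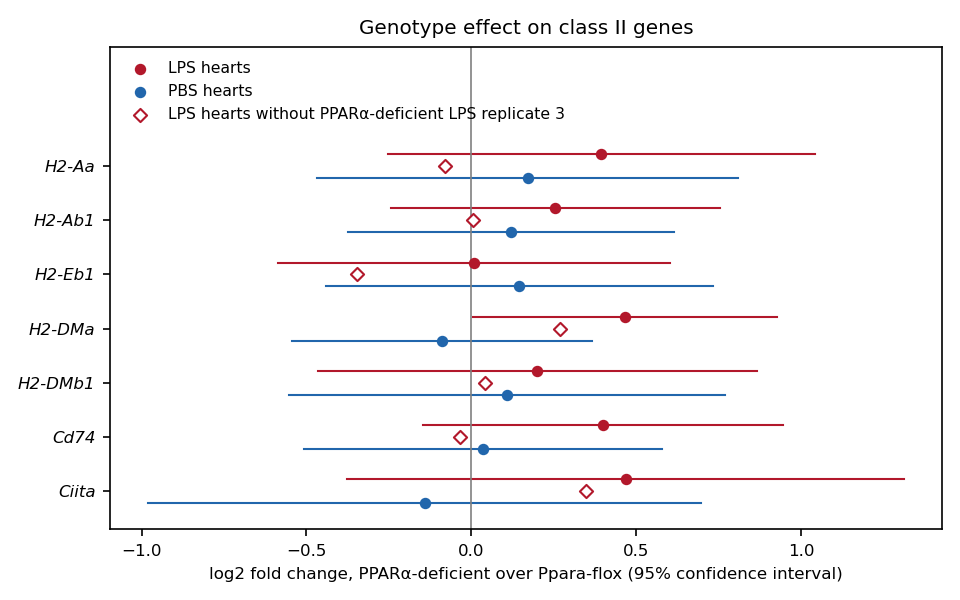
Log2 fold change of the 7 genes, PPARα-deficient over Ppara-flox, in LPS hearts and in PBS hearts; circles are estimates and lines their 95% confidence intervals. Open diamonds give the LPS estimate without PPARα-deficient LPS replicate 3, which lies left of the full estimate for each gene, below 0 for H2-Aa, H2-Eb1 and Cd74.

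Class I presentation moved the other way. Of 25 genes of class I chains, peptide transport, immunoproteasome and loading, 24 were higher and 0 lower with LPS in PPARα-deficient hearts, and 22 were higher and 0 lower in Ppara-flox hearts, against the 19.4% and 20.2% of all genes that were higher. Their median log2 fold change was 2.09 in PPARα-deficient hearts and 1.96 in Ppara-flox hearts. In Ppara-flox hearts the peptide transporter gene Tap1 rose by 3.66 on the log2 scale, its partner Tap2 by 1.59, the loading genes Tapbp and Tapbpl by 1.98 and 2.78, the immunoproteasome subunit gene Psmb8 by 2.63 and the non-classical chain gene H2-T23 by 2.35. The 3 that did not pass there, named after their values were seen, were the chaperone genes Calr and Canx and the chain gene H2-T24.

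The summed level of the 3 class II chain genes was 29.5 to 86.9 CPM in LPS PPARα-deficient hearts and 39.5 to 54.8 CPM in LPS Ppara-flox hearts, against 98.3 to 177.6 CPM in PBS PPARα-deficient hearts and 106.7 to 132 CPM in PBS Ppara-flox hearts. The summed level of the 25 class I genes was 3773 to 5728 CPM and 2963 to 4596 CPM in LPS hearts of those genotypes, against 1362 to 1758 CPM and 1401 to 1513 CPM in PBS hearts. By these sums each LPS heart had less of the 3 class II chain genes and more class I than any PBS heart of its genotype. Summed over all 7 class II genes this did not hold in PPARα-deficient hearts. There LPS replicate 3 had 195.7 CPM, above PBS replicates 2 and 4 at 174.6 and 184.4 CPM. Within the LPS groups the library with the highest class II sum was also the one with the highest class I sum, replicate 3 of the PPARα-deficient and replicate 4 of the floxed hearts.

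**Figure D3:**
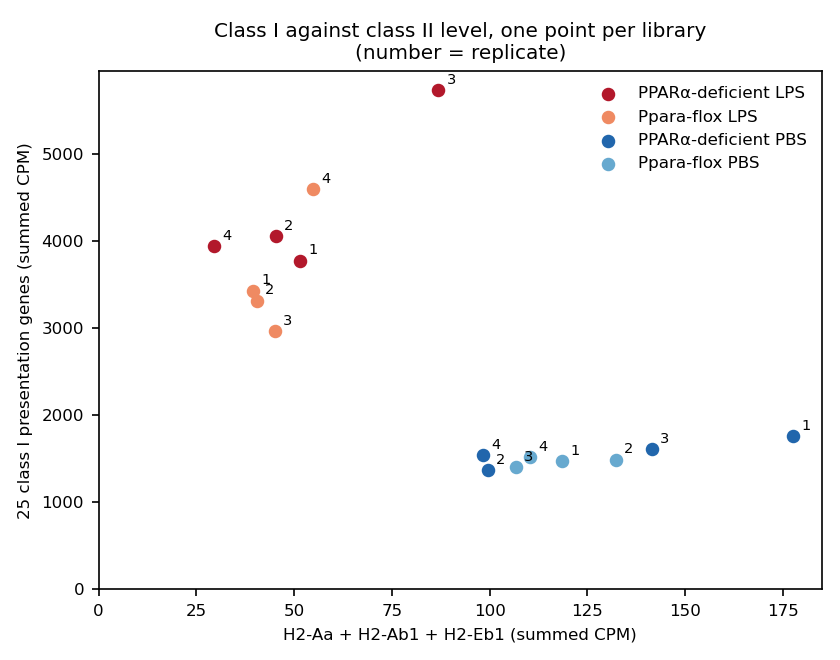
Summed level of 25 class I presentation genes (y axis, CPM) against the summed level of H2-Aa, H2-Ab1 and H2-Eb1 (x axis, CPM), with 1 point per heart and the replicate number beside it. LPS hearts lie at the upper left, at 2963 CPM of class I or more and at most 86.9 CPM of class II, and PBS hearts at the lower right, at 1758 CPM or less and at least 98.3 CPM.

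The 2 related transactivators parted. Nlrc5, which drives class I genes, had 44.9, 45.9, 56.7 and 23.7 CPM in LPS PPARα-deficient hearts, against 5.75, 3.25, 5.81 and 4.48 CPM in PBS PPARα-deficient hearts. In Ppara-flox hearts it had 48.9, 36.2, 31.1 and 50.5 CPM with LPS, against 5.33, 5.00, 2.78 and 3.80 CPM with PBS. It rose by 3.15 and 3.30 on the log2 scale in the PPARα-deficient and the floxed hearts (adjusted p = 2.61e-07 and 1.51e-07), whereas Ciita passed in neither. The ratio of Nlrc5 to Ciita was 22.4 to 48.4 and 26.9 to 52.3 in LPS hearts of those genotypes, against 2.44 to 3.78 and 1.24 to 4.17 in PBS hearts. Nlrc5 had 1 low library among the PPARα-deficient LPS hearts, replicate 4, the one in which Ciita was at 0.489 CPM.

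**Figure D4:**
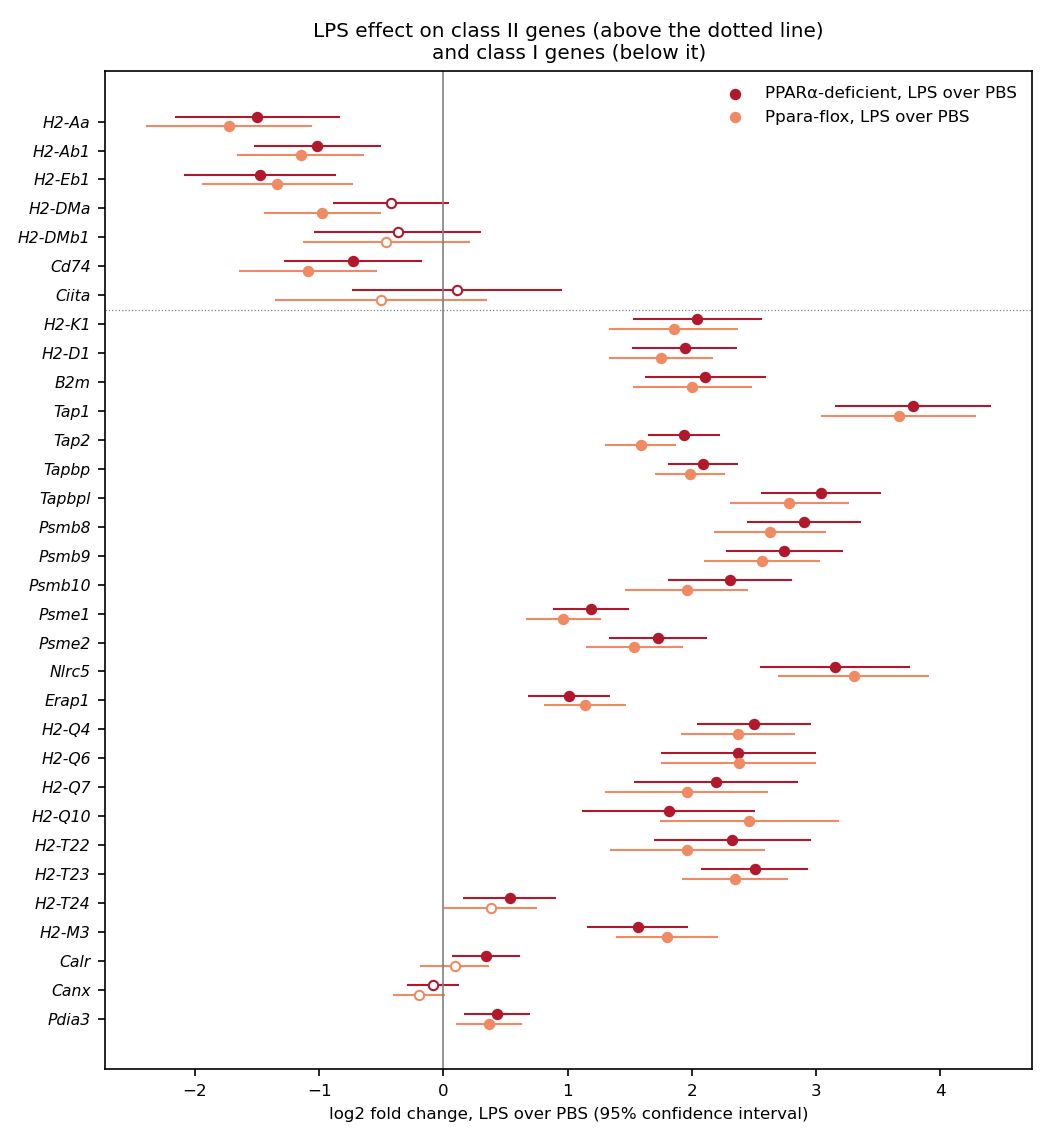
Log2 fold change, LPS over PBS, of the 7 class II genes and 25 class I genes in PPARα-deficient and in Ppara-flox hearts, with 95% confidence intervals. Filled circles passed an adjusted p under 0.05 and open circles did not; the called class II genes lie left of 0 and all called class I genes right of it.

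Interferon signalling, with the interferon-γ route to Ciita in it, was read from 17 genes, of which 15 were tested. The list also holds Ifnb1 and the interferon-α and -β receptor genes Ifnar1 and Ifnar2. Its counts are thus not of the interferon-γ route alone. In each genotype 11 were higher (73.3%) and 2 lower (13.3%) with LPS. Over all genes 19.4% were higher and 18.3% lower in PPARα-deficient hearts, and 20.2% and 19.1% in Ppara-flox hearts. The interferon targets Cxcl9, Igtp and Iigp1 rose by 6.17, 5.83 and 5.86 on the log2 scale in Ppara-flox hearts, and Irf8 by 2.28. Irf1, which binds the interferon-responsive Ciita promoter, rose by 1.67 ± 0.26 in PPARα-deficient hearts (adjusted p = 7.39e-05) and by 0.75 ± 0.25 in Ppara-flox hearts (adjusted p = 0.0255). The 2 genes that were lower in Ppara-flox hearts were the receptor subunit gene Ifngr2, with a log2 fold change of -1.31 ± 0.10, and the kinase gene Jak1, with one of -0.25. The ligand-binding subunit gene Ifngr1 was higher by 0.46 in PPARα-deficient hearts and did not pass in Ppara-flox hearts. Ifng itself had a count in 5 of the 16 libraries and at most 8 estimated counts, below the level taken as measurable here, and Ifnb1 had 0 in all 16.

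Of 9 genes known to restrain or modulate Ciita or interferon signalling, 5 were higher (55.6%) and 1 lower (11.1%) with LPS in PPARα-deficient hearts. In Ppara-flox hearts 4 were higher (44.4%) and 2 lower (22.2%). Over all genes 19.4% were higher and 18.3% lower in PPARα-deficient hearts, and 20.2% and 19.1% in Ppara-flox hearts. The feedback inhibitors Socs1 and Socs3 rose by 3.67 and 4.23 on the log2 scale in Ppara-flox hearts. Prdm1, which encodes the repressor Blimp-1 that silences Ciita in plasma cells, was lower, with 0.969 ± 0.263 CPM in LPS Ppara-flox hearts and 2.78 ± 0.130 CPM in PBS Ppara-flox hearts (adjusted p = 0.00216). In those hearts the log2 fold change was 0.42 for Sin3a, 0.59 for Nr1h3 and -0.21 for Hdac2.

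The wider class II machinery was mixed. A list of 26 further symbols held DM and DO chains, lysosomal proteases, the RFX, NF-Y and CREB factors and costimulators. Some genes stood there under more than 1 name. Of the 26 symbols 21 were found in the data and 18 were tested. With LPS 8 were higher (44.4%) and 3 lower (16.7%) in PPARα-deficient hearts, against 19.4% and 18.3% of all genes. In Ppara-flox hearts 7 were higher (38.9%) and 3 lower (16.7%), against 20.2% and 19.1%. The share that was lower was thus not above that of all genes. Of the X-box factor genes Rfx5, Rfxank, Rfxap and Creb1, 2 rose with LPS in both genotypes. Rfx5, of the RFX complex, had 12.8, 15.3, 13.1 and 10.6 CPM in LPS PPARα-deficient hearts and 15.1, 9.77, 11.3 and 13.1 CPM in LPS Ppara-flox hearts, against 3.90, 4.01, 4.55 and 6.26 CPM in PBS PPARα-deficient hearts and 4.22, 3.39, 5.52 and 4.06 CPM in PBS Ppara-flox hearts. It rose by 1.47 and 1.52 on the log2 scale in PPARα-deficient and floxed hearts (adjusted p = 1.37e-05 and 9.22e-06), and Rfxank, its partner in the RFX complex, by 1.01 and 1.47. The third subunit gene Rfxap did not pass, with log2 fold changes of -0.25 and -0.35 (adjusted p = 0.309 and 0.142), nor did Creb1, with -1.27 and -0.24 (adjusted p = 0.148 and 0.809).

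Rfxank was the gene of this wider list nearest to a genotype difference in LPS hearts. It had 42.0, 30.8, 50.6 and 48.0 CPM in PPARα-deficient LPS hearts, against 60.2, 61.4, 71.3 and 55.1 CPM in Ppara-flox LPS hearts, with no overlap (log2 fold change -0.53 ± 0.13, adjusted p = 0.0566). It passed with DESeq2 (adjusted p = 0.0112) and in 5 other settings. The NF-Y subunit genes Nfya and Nfyc were lower with LPS in Ppara-flox hearts, with log2 fold changes of -0.56 and -0.59, and the third subunit gene Nfyb was higher by 0.73 (adjusted p = 0.00151). Cd40, a costimulator of antigen-presenting cells, and Ctsl, a lysosomal protease, were higher by 1.27 and 1.06. H2-Ob, a chain of the DM inhibitor DO that is typical of B cells, passed (adjusted p = 0.0412) although the groups overlapped. It averaged 0.1004 ± 0.07933 CPM in LPS Ppara-flox hearts and 0.589 ± 0.433 CPM in PBS Ppara-flox hearts. That LPS mean lay under the level taken as measurable here (0.152 to 0.178 CPM), so the size of the fall is uncertain.

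Markers of the cells that could carry class II moved with LPS as well. Of 16 macrophage markers, 2 were higher (12.5%) and 7 lower (43.8%) with LPS in PPARα-deficient hearts, against 19.4% and 18.3% of all genes. In Ppara-flox hearts 2 were higher (12.5%) and 8 lower (50%), against 20.2% and 19.1%. Their summed level was 222 to 297 CPM and 199 to 263 CPM in LPS hearts of those genotypes, against 308 to 354 CPM and 263 to 345 CPM in PBS hearts, and none of the 16 was at 0 in any library. In Ppara-flox hearts the log2 fold change was -1.21 for Csf1r, the growth factor receptor of macrophages, -1.13 for Folr2, of resident macrophages, -4.13 for the chemokine receptor gene Cx3cr1 and 1.88 for the Fc receptor gene Fcgr1. Cx3cr1 averaged 0.165 CPM with LPS there, no higher than the level taken as measurable here (0.152 to 0.178 CPM). The size of its fall is therefore uncertain. Cd68 was higher in Ppara-flox hearts by 0.54. The 6 markers that did not pass there were Adgre1, C1qa, C1qb, Lyve1, Mertk and Aif1. The part of these shifts in the class II values was not tested.

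Set against Csf1r in the same library, H2-Aa no longer separated LPS from PBS in PPARα-deficient hearts. Its ratio to Csf1r was 0.727, 0.768, 1.24 and 0.358 in LPS PPARα-deficient hearts, against 1.297, 0.743, 1.26 and 0.856 in PBS PPARα-deficient hearts. In Ppara-flox hearts the ratio was 0.568, 0.730, 0.559 and 0.968 with LPS, against 0.939, 1.02, 0.929 and 1.06 with PBS, and here LPS replicate 4 lay among the PBS hearts. The ratio of Cd74 to Csf1r overlapped too. Its mean was 2.52 in LPS and 2.0 in PBS PPARα-deficient hearts, and 2.30 in LPS and 2.08 in PBS Ppara-flox hearts. Each LPS mean leaned on its highest heart. PPARα-deficient LPS replicate 3 had 3.91, with 2.04, 2.21 and 1.90 in the others. Ppara-flox LPS replicate 4 had 3.115, with 1.99, 2.35 and 1.75 in the others. PBS ratios ran from 1.40 to 2.44 and from 1.99 to 2.14 in PPARα-deficient and floxed mice. The ratio of H2-Aa to C1qa, a complement gene of macrophages, stayed apart: it was 0.203 to 0.738 and 0.311 to 0.544 in LPS hearts of PPARα-deficient and floxed mice, against 0.803 to 1.66 and 1.04 to 1.29 in PBS hearts. Csf1r itself was lower with LPS, with log2 fold changes of -1.10 in PPARα-deficient and -1.21 in Ppara-flox hearts. C1qa passed in neither, at -0.13 and -0.20, so the 2 ratios differ by their reference gene. The 2 reference genes were chosen after their values were seen.

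B-cell markers were scarce, and their summed level was lower with LPS. Their 10 genes summed to 1.54 to 3.91 CPM in LPS PPARα-deficient hearts and 1.39 to 2.46 CPM in LPS Ppara-flox hearts, against 5.45 to 8.10 CPM in PBS PPARα-deficient hearts and 4.54 to 6.68 CPM in PBS Ppara-flox hearts. Of 8 tested, 1 was lower in PPARα-deficient hearts (12.5%, against 18.3% of all genes) and 2 in Ppara-flox hearts (25%, against 19.1%), and 0 were higher. In Ppara-flox hearts Ighm, the heavy chain of IgM, had a log2 fold change of -2.72 ± 0.70 and Cd79a, of the B-cell receptor, one of -3.31 ± 1.15. Ighm averaged 0.484 CPM with LPS and 3.17 CPM with PBS there, where the mean sums were 1.87 and 5.52 CPM. Cd79a averaged 0.0372 CPM with LPS, under the level taken as measurable here (0.152 to 0.178 CPM), so the size of its fall is uncertain. Pax5, a B-lineage transcription factor, did not pass and had log2 fold changes of 2.17 in PPARα-deficient and 1.05 in Ppara-flox hearts. The markers Cd79b and Cd22, also not called, had values of 0.40 and -0.28 in PPARα-deficient hearts. In Ppara-flox hearts theirs were -1.77 and 0.94. The B-cell marker Ms4a1 was at 0 in 12 of the 16 libraries.

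Of 11 dendritic-cell markers tested, 5 were higher and 5 lower with LPS in PPARα-deficient hearts, and 5 higher and 3 lower in Ppara-flox hearts. In Ppara-flox hearts the log2 fold change was -2.17 for Irf4, -0.48 for Zbtb46, 4.10 for Xcr1 and 0.85 for Fscn1. Xcr1 averaged 0.0414 CPM in PBS Ppara-flox hearts, under the level taken as measurable here, so the size of its rise is uncertain. Flt3, which marks conventional dendritic cells, was at 0 in 6 of the 8 LPS libraries and in 2 of the 8 PBS libraries, with at most 28 estimated counts in any. Zbtb46 and Fscn1 averaged 26.1 and 42.2 CPM in PBS Ppara-flox hearts, against 0.923 CPM for Irf4. Without Zbtb46, Fscn1 and Sirpa, 10 markers summed to 6.77 to 18.6 CPM in LPS and 5.32 to 8.81 CPM in PBS PPARα-deficient hearts. In Ppara-flox hearts they summed to 5.80 to 10.7 CPM and 5.19 to 7.13 CPM, again overlapping. Of 7 monocyte markers, 6 were higher in each genotype, Plac8 by 5.11 and Ly6c2 by 1.45 in Ppara-flox hearts. Plac8 averaged 0.134 CPM in PBS Ppara-flox hearts, under the level taken as measurable here, so the size of its rise is uncertain. The seventh monocyte marker, the chemokine receptor gene Ccr2, was lower in PPARα-deficient hearts (log2 fold change -1.65, adjusted p = 0.0325) and did not pass in Ppara-flox hearts (-1.48, adjusted p = 0.0515). Of 8 neutrophil markers tested, 7 were higher in each genotype, S100a8 by 4.69 in Ppara-flox hearts. No T- or NK-cell marker of 8 tested passed in either genotype, with 4 and 1 at an unadjusted p under 0.05 in PPARα-deficient and Ppara-flox hearts. Of all 18713 genes, 8548 and 8758 had an unadjusted p under 0.05 in those comparisons. Beside these marker counts, 19.4% of all genes were higher and 18.3% lower with LPS in PPARα-deficient hearts, and 20.2% and 19.1% in Ppara-flox hearts. Whether any of these cells bears on the class II values was not tested.

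Across the 16 libraries, with each group's mean subtracted, the 7 genes varied together to different degrees. The likeness of a pair, Pearson's r of these log2 CPM deviations, was 0.91 for H2-Aa with H2-Ab1, 0.89 for H2-Aa with Cd74 and 0.84 for H2-Eb1 with H2-DMa. The 3 lowest values were those of Ciita with H2-Eb1 (0.18), H2-DMa (0.24) and Cd74 (0.28). Ciita with each of the other 3 genes gave 0.52, above the 0.34 of H2-DMb1 with Cd74. The genes whose deviations were most like the mean of the 7, among 13380 genes with a mean log2 CPM of at least 0, were H2-T23 at 0.90, Il2ra at 0.87, Itm2b and Irgm2 at 0.86, Psmb9 and Sp140 at 0.85, and Nars, Gm44597, Irgm1 and Rasa4 at 0.83. Without PPARα-deficient LPS replicate 3 the values of these 10 were 0.74 to 0.89. The points share libraries and their depth, and these are descriptions with no test.

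The most alike genes did not all share the LPS response of class II. Rasa4 and Gm44597 were lower with LPS in both genotypes. Their log2 fold changes were -1.22 and -0.92 in PPARα-deficient hearts (adjusted p = 0.000267 and 0.025). In Ppara-flox hearts they were -1.48 and -1.11 (adjusted p = 4.08e-05 and 0.00851). Sp140 and Nars were higher with LPS in both genotypes, and Itm2b passed in neither. H2-T23 and Psmb9, both of class I presentation, rose with LPS by 2.51 and 2.74 on the log2 scale in PPARα-deficient hearts and by 2.35 and 2.56 in Ppara-flox hearts. The interferon-inducible GTPase genes Irgm1 and Irgm2 rose by 4.32 and 3.84 in Ppara-flox hearts. Il2ra, the interleukin-2 receptor α chain gene, did not pass in PPARα-deficient hearts (log2 fold change -0.66, adjusted p = 0.245) and was lower in Ppara-flox hearts (-1.35, adjusted p = 0.0202).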

How the data were processed

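The 16 tables hold 1 line per gene with the authors' estimated counts, whole numbers as deposited, 1 table per heart. Per the submitters' processing notes, fastp 0.23.2, HISAT, StringTie 1.3.3b and DESeq2 1.30.1 were used with build GRCm38, and per the labels' protocols libraries were made with a stranded kit; the counting step, annotation and strand setting are not given in the sources used here. Of 55421 lines, 27 whose symbol had become a calendar date were left out (0.0644% to 0.0861% of counts). Repeated symbols were summed, giving 55278. Low values peaked at multiples of 4, so 12 estimated counts, 3 after division by 4, were taken as the floor. That floor covers counting error only.

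Counts were fitted with edgeR 4.0.16 in R 4.3.3 (TMM factors, filterByExpr, quasi-likelihood F test, a mean for each of the 4 groups, 12 residual degrees of freedom). P-values were Benjamini-Hochberg adjusted over 18713 genes and called under 0.05. The fit was also tested on simulated counts, drawn with the means, library sizes and spread of these data. SE is that of the fitted log2 fold change. The alternatives were other scaling factors, DESeq2 1.42.0, limma-voom (limma 3.58.1), filters, threshold, subset and block fits, and leaving out each library. limma-voom, counts divided by 4, a term for the 2 number series of PBS libraries (957 to 971, 1069 to 1075) and leaving out 2 libraries together were added after the data were seen. Genes beyond the 7 were named by smallest adjusted p in the LPS comparison of Ppara-flox hearts (up to 6 a list, 4 a marker list), opposite calls and known regulators added. Some genes that this rule names are not reported here. The 7 genes, the lists and the motifs were chosen with earlier results of these data known. Genes Marchf1 and Marchf8 are not analysed here. Exonic lengths and positions are from GENCODE release M21, and promoter sequences from the RefSeq table of GRCm38.p6, in which 4 of the 7 genes and 21 of 25 class I genes matched.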

Additional observations from a re-analysis of the deposited data

Results flagged for a closer look

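In 40 group-by-measure sets (4 groups, 10 measures), the highest or lowest heart was compared with the other 3 by Dixon's gap, which chance passes in about 1 set in 20. The gap passed in 4 sets.

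Cd74 was at 99.35 CPM in PPARα-deficient LPS replicate 3, against 36.63 to 45.64 CPM in the other 3 hearts of the group. The summed class I level of the same heart was 5728 CPM, against 3773 to 4050 CPM. That heart was highest in its group for 6 of the 7 class II genes and for 18 of 25 class I genes, and its macrophage markers lay on average 0.28 log2 units above the group mean. What sets it apart was not tested.

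H2-Aa was at 16.21 CPM in Ppara-flox LPS replicate 4, against 11.71 to 12.15 CPM in the other 3 hearts, and 21 of 25 class I genes were highest in that heart.

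Ciita was at 0.4891 CPM in PPARα-deficient LPS replicate 4, against 1.927 to 2.006 CPM in the other 3 hearts, on 35 estimated counts.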

How the results depend on the processing

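Over 28 other settings, 16 of them without 1 library, the count of class II genes lower with LPS in Ppara-flox hearts was 5 in each and the count by genotype 0 in each. The count by interaction was 0 in each of the 27 settings that hold all 4 groups. The count in PPARα-deficient hearts was 4, and 3 to 5 when 1 library was left out, 3 at an adjusted p under 0.01 or in the 8 libraries alone, and 5 without PPARα-deficient LPS replicate 3 and Ppara-flox LPS replicate 4 together. Cd74 and H2-DMa made these differences. Of all genes, the 28 settings called 5040 to 7608 with LPS in PPARα-deficient hearts and 5221 to 7850 in Ppara-flox hearts. Of 196 member values in each LPS comparison, 5 turned sign in PPARα-deficient hearts, all of Ciita, and 0 in Ppara-flox hearts.

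Values that turned sign were all uncalled. Ciita with LPS in PPARα-deficient hearts was -0.032 with limma-voom, -0.012 without both libraries and -0.083 to 0.41 without 1 library. For genotype in LPS hearts, H2-Eb1 was -0.071 with limma-voom and -0.17 without both libraries, and without 1 library H2-Aa ran from -0.081 to 0.63, H2-Eb1 from -0.35 to 0.19 and Cd74 from -0.034 to 0.56. For genotype in PBS hearts the values without 1 library were -0.025 to 0.29 for H2-Aa, -0.085 to 0.23 for H2-Ab1, -0.021 to 0.25 for H2-Eb1, -0.24 to 0.025 for H2-DMa, -0.030 to 0.35 for H2-DMb1, -0.11 to 0.16 for Cd74 and -0.27 to 0.048 for Ciita. For the interaction, H2-DMb1 was -0.041 with limma-voom, and without both libraries H2-Aa was -0.13, H2-Ab1 -0.043 and H2-DMb1 -0.054. Without 1 library the interaction was -0.25 to 0.46 for H2-Aa, -0.12 to 0.34 for H2-Ab1, -0.49 to 0.048 for H2-Eb1, -0.15 to 0.34 for H2-DMb1 and -0.068 to 0.52 for Cd74. The cause was not tested.

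Replicate numbers did not pair the hearts: same-numbered hearts correlated at -0.204 to 0.167 over 10000 genes, with at most 2 of 4 pairs over 0.1 in a comparison. With the replicate block the class II counts were 4 and 5 with LPS in PPARα-deficient and Ppara-flox hearts and 0 elsewhere, and H2-Eb1 by genotype in LPS hearts was -0.051. With that block 6859 and 7162 of all genes were called with LPS in those genotypes. By genotype it called 187 of all genes in LPS hearts and 72 in PBS hearts. Without the block, the count over all genes by genotype in LPS hearts was 231. It was 444 with DESeq2, 126 at an adjusted p under 0.01 and 141 in the 8 libraries alone. In PBS hearts it was 81 and with DESeq2 183. The interaction count was 0, with DESeq2 55 and with other settings up to 5. Rfxank alone of the wider class II list passed by genotype in LPS hearts, in 6 settings. Depth limits Ciita most: its lowest library held 35 estimated counts, a counting error of 33.8% after division by 4.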

Other observations

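Other marker lists gave these counts with LPS. Over all genes 19.4% were higher and 18.3% lower in PPARα-deficient hearts, and 20.2% and 19.1% in Ppara-flox hearts. The endothelial shares were near these, at 12.5% each way in PPARα-deficient hearts and 25% higher and 12.5% lower in Ppara-flox hearts. Of 8 endothelial markers 1 was higher and 1 lower in PPARα-deficient hearts, and 2 higher and 1 lower in Ppara-flox hearts. Of 6 fibroblast markers 1 was higher and 4 lower in each genotype. Of 7 cardiomyocyte markers 5 were lower in PPARα-deficient hearts and 6 in Ppara-flox hearts, with a summed level of 34590 to 39530 CPM in LPS PPARα-deficient hearts and 31510 to 36730 CPM in LPS Ppara-flox hearts, against 54800 to 61600 CPM in PBS PPARα-deficient hearts and 58270 to 64900 CPM in PBS Ppara-flox hearts.

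Irf1 was higher in 3 of 4 PPARα-deficient LPS hearts (81.3, 73.1 and 58.7 CPM, with 25.5 CPM in replicate 4) than in any Ppara-flox LPS heart (38.1, 27.6, 30.5 and 28.8 CPM), with an adjusted p of 0.105. Replicate 4 was also the PPARα-deficient LPS heart lowest in Ciita and in Nlrc5.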
